A study of Mus musculus with 11 samples.

Results

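In mouse dentate gyrus, 359 of 59298 accessible regions (0.605%) had a peak among the highest-scoring ones of every control E1 library. They had none among those of any control E0 library or of either E1 library with c-Fos targeted. Accessibility was read as ATAC-seq peaks, stretches where a transposase inserts sequencing adapters into open DNA. The deposited peak list of each library was cut to its 25145 highest-scoring peaks on chromosomes 1 to 19 and X, so that all 11 lists had equal length. Overlapping peaks from all lists (1 bp sufficed) formed a region, and a library called a region when it had a peak in it. The 359 regions are called missing regions below, since their peak was missing from the top lists of shRNA-cFos E1. These calls chose them, so their pattern in shRNA-Ctrl and at shRNA-cFos E1 is a description and not a test.

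All mice were 8-week-old C57BL/6 animals. An adeno-associated virus (AAV) in their dentate gyrus carried an shRNA that either served as control (shRNA-Ctrl) or targeted c-Fos (shRNA-cFos). The study asked how neuronal activation alters accessible chromatin. E0 lists carry the word sham in their names, and the labels do not define E1 further. With the control shRNA there were 3 libraries at E0 and 3 at E1, and with the c-Fos shRNA 3 at E0 and 2 at E1, each from 1 mouse. Which cells took up the virus, which promoter drove the shRNA and how far c-Fos fell are not known from the sources at hand. The lists name no genes, so neither the tissue's markers nor the Fos gene could be checked, and the regions are given by position in build mm9.

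The dentate gyrus is the hippocampal field of granule neurons. c-Fos, the product of an immediate-early gene that neurons induce when they fire, pairs with Jun proteins to form the transcription factor AP-1. AP-1 binds many enhancers that lie far from gene starts, and it is known for binding together with factors that open chromatin. In dissected tissue, a weaker peak can come from fewer cells with an open site or from a less open site in each cell, and these cannot be told apart.

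The missing regions were the smallest class of regions gained at E1. In all, 2080 regions (3.51% of 59298) had a call in every control library at E1 and in no control library at E0. Of these, both shRNA-cFos E1 libraries called 1176, here called retained, 1 of them called 545, here called partial, and neither called 359. A further 279 regions had the same calls at E1 as the missing regions but were also called in at least 1 shRNA-Ctrl E0 library, which makes 638 regions (1.08%) with those E1 calls. Of the missing regions, 309 had a top-list call in the control E1 libraries and in no other library. Every region with that pattern meets the rule, so these 309 are also all such regions among the 59298 (0.521%). At any rank, 55 of the 359 had no peak outside the shRNA-Ctrl E1 lists. The 359 regions covered 222 kb.

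The libraries differ in ways that touch these calls. As deposited the lists held between 25215 and 78377 peaks, so the cut fell at very different scores. The last peak kept had a score of 50 in shRNA-Ctrl E0 replicate 1, whose whole list was used, and of 174.94 in shRNA-Ctrl E1 replicate 3. Read depth is unknown. The names of 2 lists, shRNA-Ctrl E1 replicates 1 and 3, lack a word that the other 9 carry. At most 0.0318% of the peaks of a list had the same start and end as a peak of another list, so each list was taken as a library of its own.

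The missing region with the highest score percentile lay on chromosome 2 at 50648974 to 50649696, 723 bp wide. Its percentile within the top list (100 is the highest-scoring peak) was 85.6, 72.0 and 81.5 in shRNA-Ctrl E1 replicates 1 to 3. None of the 6 E0 lists had a peak there at any rank. Both shRNA-cFos E1 lists did have one below the cut, at rank 29075 in replicate 1 and rank 31690 in replicate 2. So this region was high in all 3 control E1 libraries and low-ranked, not without a peak, under c-Fos knockdown.

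Regions with some signal in knockdown mice at E0 stood next in that order. On chromosome 16 at 48472780 to 48473401 (622 bp) the percentiles at shRNA-Ctrl E1 were 82.8, 52.9 and 65.3, and shRNA-cFos E0 replicate 1 called it near the end of its top list, at rank 24670. On chromosome X at 69627244 to 69627842 (599 bp) they were 70.9, 51.3 and 76.4, and shRNA-cFos E0 replicate 1 called it at rank 18722. In each of these regions, shRNA-Ctrl E1 replicate 2 was the lowest of the 3. A region on chromosome 2 at 85351615 to 85352386 (772 bp; percentiles 74.8, 65.3 and 55.5) had no shRNA-cFos E1 peak in replicate 2 and one at rank 34776 in replicate 1.

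Among the 25 missing regions with the highest mean percentile, 2 had no peak outside shRNA-Ctrl E1 at any rank. One lay on chromosome 10 at 23289093 to 23289758 (666 bp), with percentiles of 77.3, 51.2 and 58.4. The other lay on chromosome 15 at 66829792 to 66830520 (729 bp), with percentiles of 57.1, 54.2 and 72.1. Both were open in every control E1 mouse, with a percentile above 50 in each. The 25 spanned mean percentiles from 55.6 to 79.7 and widths from 530 to 1278 bp, on 15 chromosomes. Of them, 20 were called in no library outside shRNA-Ctrl E1, yet 10 had a lower-ranked peak in both shRNA-cFos E1 lists, 12 in 1 of them and 3 in neither.

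Most missing regions were low-ranked and not devoid of a peak at shRNA-cFos E1. The full list of shRNA-cFos E1 replicate 1 had a peak in 263 of the 359 (73.3%, Wilson 95% interval 68.5 to 77.6), and that of replicate 2 in 156 (43.5%, 38.4 to 48.6). Of all 59298 regions, these lists had a peak in 65.4% and 58.2%. Together they had one in 290 missing regions (80.8%, against 72.6% of all regions). Both lists had one in 129 (35.9%, against 50.9% of all regions), which is a lower share. Only 1 list had one in 161 (44.8%, against 21.7%), and neither in 69 (19.2%, against 27.4%). Over all regions that neither top list called, 44% had such a lower-ranked peak. Intervals here and below cover counting error only.

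Ranks of these peaks reached from just under the cut to the end of each list. In shRNA-cFos E1 replicate 1 the first was at rank 25198 (score 103.17, chromosome 5 at 22094473 to 22095107) and the median at rank 32896 of 48262. In replicate 2 the first was at rank 25194 (score 84.35, chromosome 14 at 117067343 to 117067934) and the median at rank 31677 of 40627. Within 5000 ranks of the cut lay 97 of the 263 and 57 of the 156. On the other side of it, 140 of the 361 partial regions called in replicate 1 and 74 of the 184 called in replicate 2 lay within 5000 ranks, the last at ranks 25118 and 25026. The boundary between missing and partial regions therefore runs through a continuous range of ranks.

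**Figure D1:**
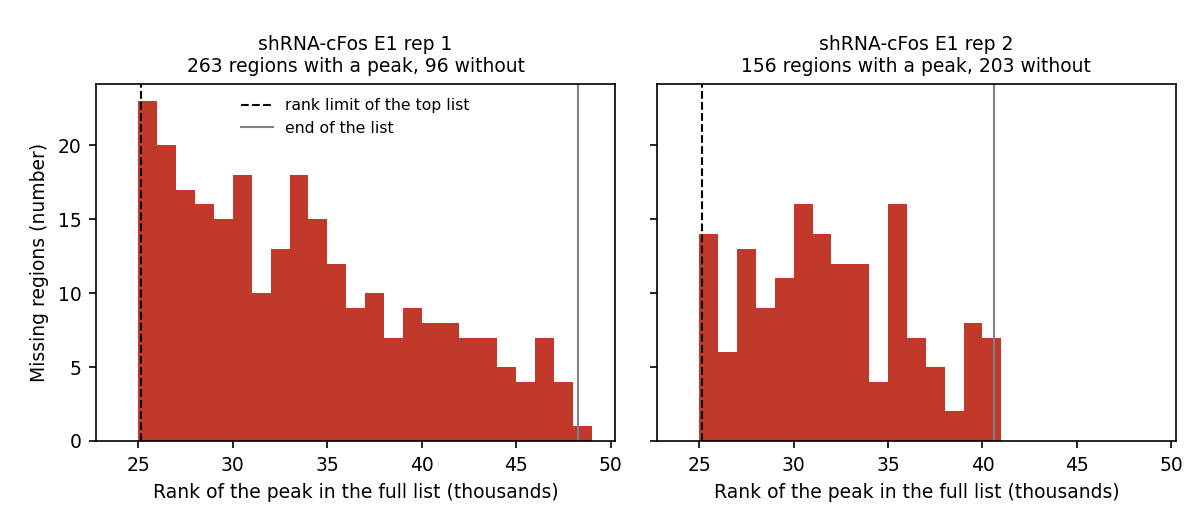
Rank in the full shRNA-cFos E1 lists (in units of 1000, x axis) of the peaks in the 359 missing regions, as the number of regions per 1000 ranks (y axis), with the rank limit dashed and the end of the list in grey. The 263 peaks of replicate 1 and 156 of replicate 2 start at the limit and spread over the rest of each list.

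The lists as deposited differ in length, so a peak at any rank is easier to find in a longer list. At an equal 40000 ranks, which only 5 lists reach, shRNA-cFos E1 replicates 1 and 2 had a peak in 212 (59.1%) and 149 (41.5%) of the missing regions. shRNA-cFos E0 replicate 2, the only E0 list of that length, had one in 52 (14.5%). Of all regions these lists had a peak in 59.2%, 57.7% and 58.1%. At 30000 ranks the values were 91 (25.3%) and 53 (14.8%) for shRNA-cFos E1, and 42 (11.7%) and 25 (6.96%) for shRNA-cFos E0 replicates 1 and 2, where the lists had a peak in 47.0% to 48.6% of all regions. At both depths each shRNA-cFos E1 list held more of these regions than each shRNA-cFos E0 list of the same length. Few lists of each state enter, and of the shRNA-cFos lists the rule excluded peaks above the cut at 25145 ranks at E1 alone, so no test was made.

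Mice with the c-Fos shRNA at E0 had no part in the rule, which does not fix their calls, though their lists entered the merging of regions. Of the 359 missing regions, shRNA-cFos E0 replicates 1 to 3 called 28 (7.8%, 5.45 to 11.04), 16 (4.46%, 2.76 to 7.12) and 21 (5.85%, 3.86 to 8.78). The same libraries called 41.7%, 42.3% and 41.6% of all regions, and 18.6%, 18.1% and 21.2% of those that neither shRNA-cFos E1 library called. The missing regions were thus called in few knockdown E0 libraries, as they were, by rule, in no control E0 library. Retained regions were called at 32.1%, 30.0% and 23.6%.

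The share was 6.04% ± 1.68 (SD, n = 3) for missing and 28.6% ± 4.47 (n = 3) for retained regions. Missing regions lay 22.5 percentage points lower on average, with differences of -24.3, -25.6 and -17.7 points in the 3 libraries (exact permutation test by sign flips, two-sided, p = 0.25; 3 libraries cannot give less). The 279 regions with the same E1 calls that shRNA-Ctrl E0 did call were found in 43.7%, 47.0% and 46.2%, a mean of 45.6% ± 1.69 (n = 3). Those regions were picked for an E0 call and the missing regions for having none, so this is given as a description. Missing regions were called less often than retained regions in 3 of 3 libraries, a difference that cannot pass a threshold of 0.05 with 3 libraries. Retained regions were picked for calls in both shRNA-cFos E1 libraries and missing regions for having none there. That choice by itself favours fewer calls in a further library. How much of the difference goes with it was not tested.

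Counted by region, 309 of the 359 (86.1%) were called in no shRNA-cFos E0 library, against 39.3% of all regions and 571 of the 1176 retained regions (48.6%). Another 38 (10.6%, against 22.2% of all regions) were called in 1 library and 9 (2.51%, against 7116 of all 59298 regions) in 2. The other 3 (0.836%, against 26.5% of all regions) were called in all 3 libraries. One of these last, on chromosome 3 at 104893813 to 104894371, had percentiles of 40.1, 37.3 and 31.9 at shRNA-Ctrl E1 and 36.2, 12.6 and 19.1 at shRNA-cFos E0. It was open in control mice at E1 and in knockdown mice at E0, with lower-ranked peaks in both shRNA-cFos E1 lists. Another, on chromosome 12 at 37968082 to 37968804, had percentiles of 14.5, 25.5 and 44.5 at shRNA-Ctrl E1 and 5.9, 16.2 and 8.5 at shRNA-cFos E0. These were named after their values were seen.

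**Figure D2:**
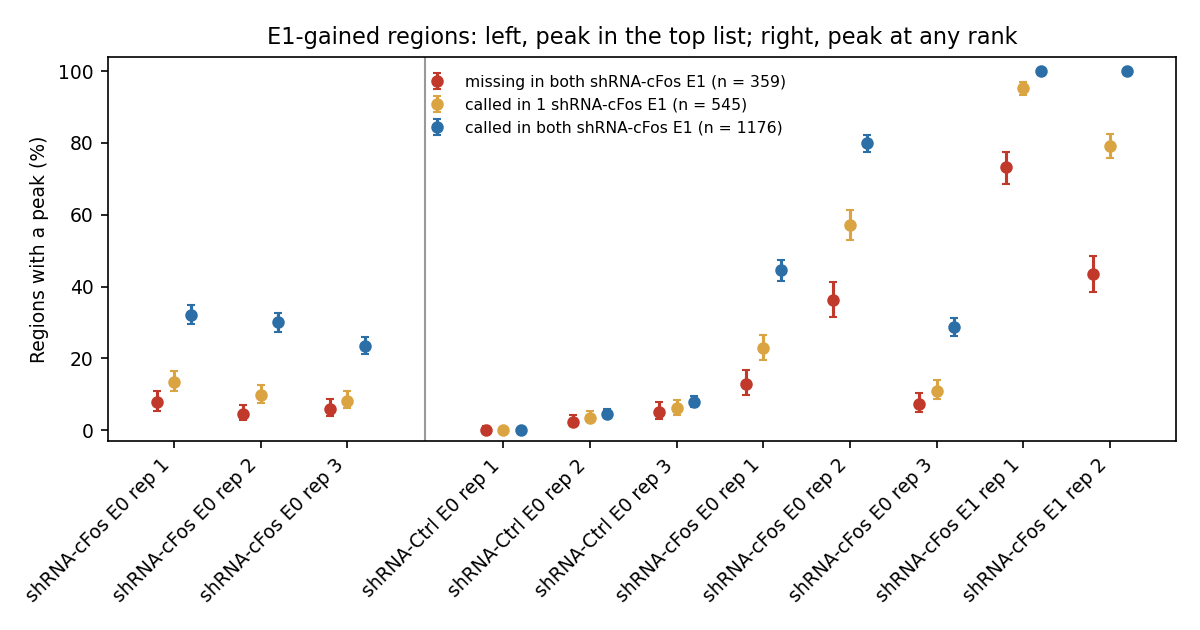
Share of missing, partial and retained E1-gained regions (%, y axis) with a peak in each library (x axis), with Wilson 95% intervals. On the left, for peaks in the top 25145 lists of shRNA-cFos E0, missing regions sit between 4.46% and 7.8%, and on the right, for peaks at any rank, they reach 73.3% and 43.5% in shRNA-cFos E1.

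At any rank, the control E0 lists of replicates 1 to 3 had a peak in 0, 8 and 18 of the missing regions (against 40.8%, 44.5% and 46% of all regions), which made 26 regions (7.24%). All lay below the cut, since the rule allows no call above it, so the gap to all regions is set by the rule. Counting only peaks below the cut, these lists had one in 0, 1656 and 2454 of all 59298 regions. The first of these lists ends at the cut and the other 2 run little further, so these counts are bounded by list length. Without any peak outside the 3 shRNA-Ctrl E1 lists were 55 regions (15.3%), on 17 chromosomes, where 0.818% of all regions had a peak in those 3 lists and in no other. The rule asks for peaks in those 3 lists and for no top-list call in shRNA-Ctrl E0 or shRNA-cFos E1, so it favours this gap. The 55 regions had a median width of 571 bp and a median mean percentile of 30.5, against 600 bp and 33.0 in the other 304 missing regions. After those on chromosomes 10 and 15, the highest-ranked of the 55 lay on chromosome 1 at 79361981 to 79362584 (percentiles 55.7, 56.8 and 52.9), chromosome 17 at 43677527 to 43678113 (78.0, 22.3 and 64.4) and chromosome 3 at 52999458 to 53000206 (72.4, 37.6 and 45.5). The chromosome 1 region was even over the 3 mice, while the chromosome 17 region was low in replicate 2.

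Missing regions were weaker and narrower than retained regions already in the control E1 libraries. Their median percentile was 41.0, 29.9 and 27.8 in shRNA-Ctrl E1 replicates 1 to 3, against 53.8, 55.3 and 44.5 for retained regions. The mean percentile over the 3 lists had a median of 33.0 (range 3.99 to 79.7) for missing, 38.5 for partial and 48.7 for retained regions. The lowest, on chromosome 16 at 21222885 to 21223529, was at rank 25140 in replicate 1, just inside the list. Of the missing regions 228 (63.5%) had a shRNA-Ctrl E1 peak in the last 20% of a top list, against 354 retained regions (30.1%).

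Median width was 594 bp (range 326 to 1278) for missing, 661 bp for partial and 782 bp for retained regions, and 665 bp for all regions. Under 500 bp were 48 missing regions and no retained region. A region called in more libraries is merged from more peaks, which widens it. The width of single peaks in the control E1 lists is free of this, and its median was 488, 448 and 533 bp for missing and 575, 570 and 618 bp for retained regions in replicates 1 to 3. Missing regions had the narrower peaks in all 3 libraries. The rule asks for no overlap with shRNA-cFos E1 top peaks in missing regions and for overlap in retained ones. That choice may itself favour narrower peaks among the missing regions, and how much of the difference goes with it was not tested.

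**Figure D3:**
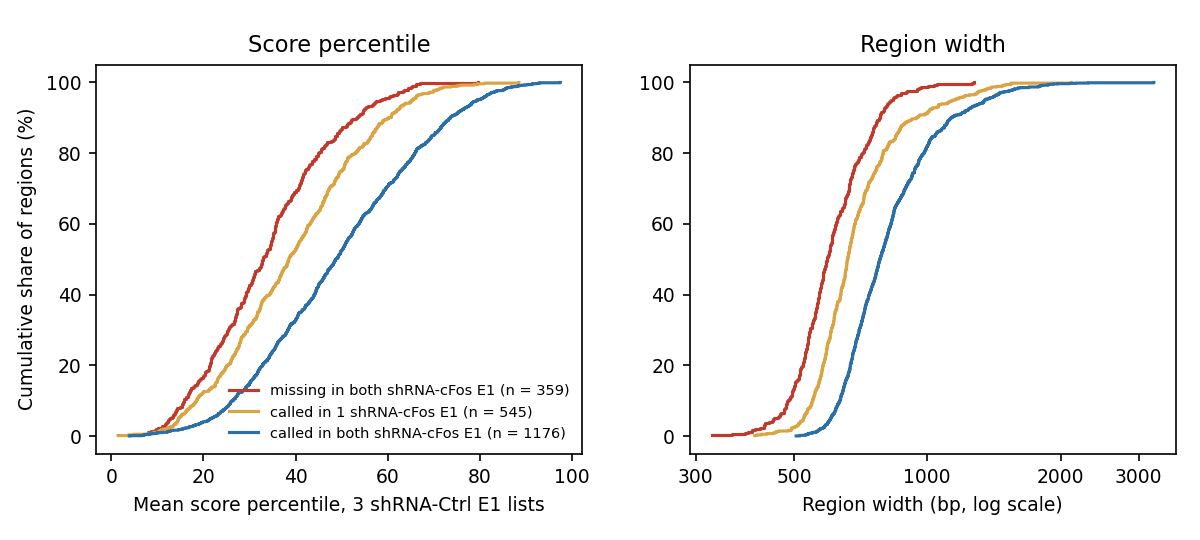
Cumulative share of E1-gained regions (%, y axis) by mean score percentile in the 3 shRNA-Ctrl E1 lists (left) and by region width in bp on a log scale (right), for missing, partial and retained regions. The missing regions lie lowest on both measures, with medians of 33.0 and 594 bp against 48.7 and 782 bp for retained regions.

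The share of E1-gained regions that was missing fell from the weakest to the strongest of them. In the lowest of 5 bands of 416 regions by mean percentile, 130 (31.2%) were missing and 145 (34.9%) retained. The next bands held 105, 65 and 43 missing regions. In the highest band, from percentile 60.1 to 97.4, 16 (3.85%) were missing and 344 (82.7%) retained. A missing call at shRNA-cFos E1 thus went with a low score at shRNA-Ctrl E1. How much of the pattern under c-Fos knockdown goes with this score was not tested.

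**Figure D4:**
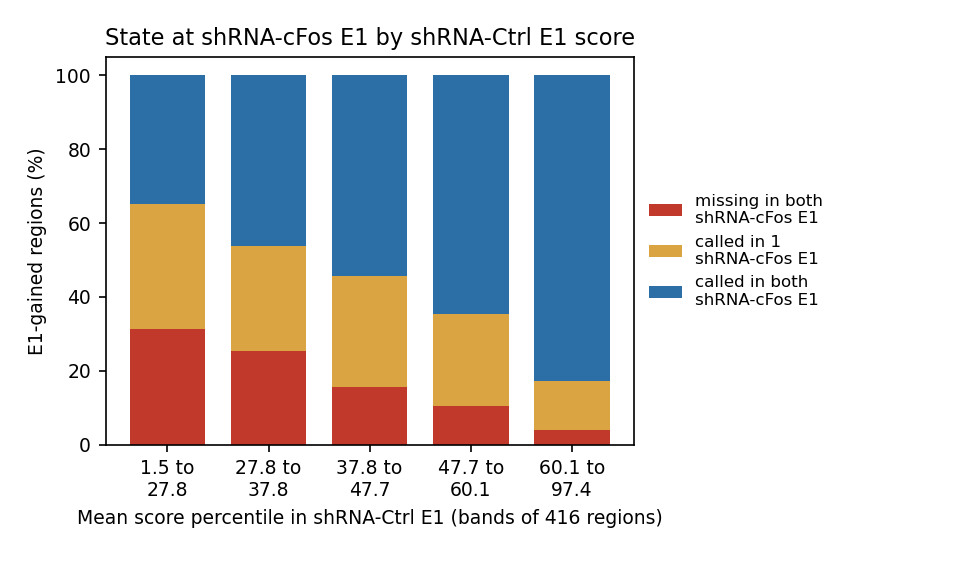
Share of E1-gained regions (%, y axis) that were missing, partial or retained at shRNA-cFos E1, in 5 bands of 416 regions by mean score percentile at shRNA-Ctrl E1 (x axis). The missing share runs from 31.2% in the lowest band to 3.85% in the highest.

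The low share of missing regions called at shRNA-cFos E0 did not follow the score in the same way. Averaged over the 3 libraries it was 6.15% in the lowest band, then 8.25%, 4.62%, 1.55% and 8.33%. Retained regions of the same bands were called at 28.5%, 29.7%, 27.1%, 29.6% and 28.1%. By these averages missing regions lay below retained regions by 19.8 to 28.1 points in all 5 bands, with only 16 missing regions in the highest. In the bands with averages of 1.55% and 8.33%, all calls were in replicate 1 (4.65% and 25%), with 0% in replicates 2 and 3. Replicate 1 called 33.1% of the retained regions in the highest band. The bands were added after the data were seen.

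The pattern was then read in libraries left out of the choice. Each library of the rule was left out in turn, regions were merged and chosen by the rule from the other 10 lists, and the share called by the left-out library was taken. Without shRNA-cFos E1 replicate 1 the rule chose 721 regions, and that library called 362 of them (50.2%, 46.6 to 53.8). Without replicate 2 it chose 542, and that library called 183 (33.8%, 29.9 to 37.8). These shares lay on either side of the 42.2% and 42.1% of all regions that these libraries called, most of which were not E1-gained. Of the 2080 E1-gained regions, replicate 1 called the 1176 retained and 361 partial ones, and replicate 2 the 1176 retained and 184 partial ones. Regions missing in 1 knockdown E1 mouse were thus called less often in the other than E1-gained regions as a whole.

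Left-out control E1 libraries gave shares in the same range. shRNA-Ctrl E1 replicates 1, 2 and 3 called 64.3%, 30.6% and 48.7% of the 561, 1175 and 742 regions chosen without them, and 42.2%, 41.9% and 42.2% of all regions. Replicate 2 thus had the lowest share, below its share of all regions, which its own peaks help to form. The values of shRNA-cFos E1 lay between the highest and the lowest of these, so left-out libraries of the 2 shRNA groups at E1 overlapped. The sets differ in how many calls and absences chose them, and no test was made. Left-out shRNA-Ctrl E0 libraries called 8.18%, 9.8% and 12.2% of the regions chosen without them, below every left-out E1 library and below the 40.8%, 41.7% and 41.8% they called of all regions.

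For regions chosen as retained, all left-out E1 libraries gave high shares. The 3 shRNA-Ctrl E1 libraries called 86.8%, 84.6% and 82.0%, and the shRNA-cFos E1 libraries 86.5% and 76.5%. The left-out shRNA-Ctrl E0 libraries called 22.9%, 22.2% and 24.7%. Each left-out library of either state called the missing class less often than the retained class.

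**Figure D5:**
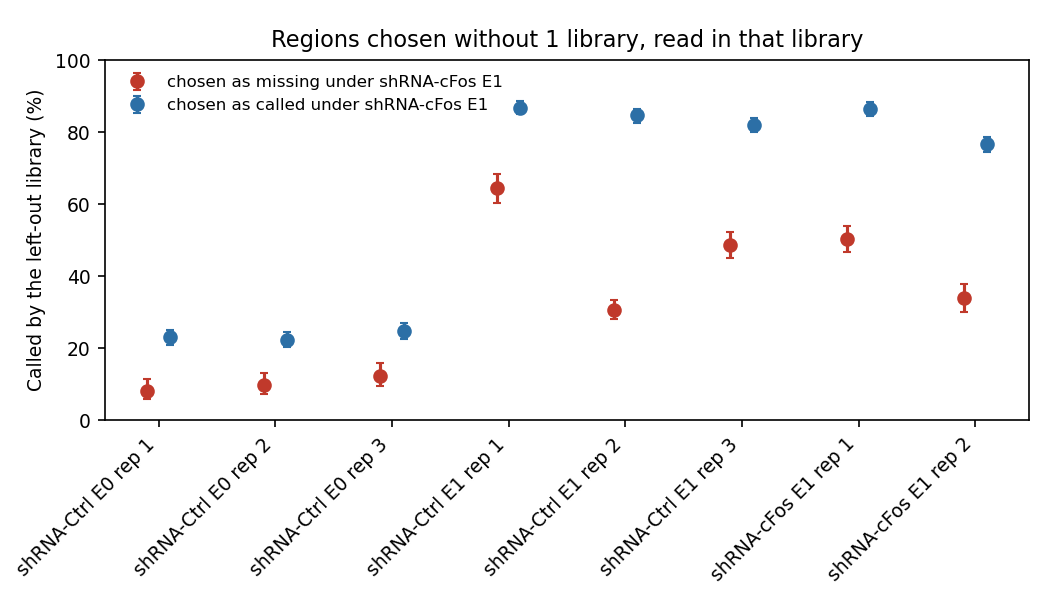
Share (%, y axis) of regions called by the library that was left out when they were chosen (x axis), for regions chosen as missing or as retained under shRNA-cFos E1, with Wilson 95% intervals. For the missing class, the shRNA-cFos E1 values of 50.2% and 33.8% fall within the shRNA-Ctrl E1 range of 30.6% to 64.3%, and E0 values stay at 12.2% or lower.

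Distances along the chromosomes are given for all classes of E1-gained regions, as a description. The median distance to the nearest region called in all 11 libraries was 86.8 kb for missing, 89.5 kb for partial and 79.6 kb for retained regions. Within 10 kb of such a region lay 24 missing (6.69%), 32 partial (5.87%) and 96 retained regions (8.16%), and beyond 100 kb lay 163 (45.4%), 260 (47.7%) and 511 (43.5%). The nearest region of any kind was 11.7 kb away at the median for missing, 10.7 kb for partial and 10.5 kb for retained regions. From the lower to the upper quartile, the distance to a constantly open region ran from 34.2 to 232.6 kb for missing and from 31.3 to 182.7 kb for retained regions.

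The 359 regions fell into 329 of 2551 windows of 1 Mb that held any region, with 1 in each of 301 windows and 2 in each of 26. Windows with 3 lay on chromosome 13 at 35000001 to 36000000, where 3 of 4 E1-gained regions were missing, and on chromosome 18 at 24000001 to 25000000, where 3 of 8 were. Chromosome 3 held most, 41 (11.4%, against 7.18% of all regions and 8.93% of retained regions). Chromosome X held 17 (4.74%, against 3.2% of all regions) and chromosome 19 held 2 (0.557%, against 1.95%). No chromosome held more than 25.8% or fewer than 6.45% of its own E1-gained regions as missing, over 17.3% in all.

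Around the missing regions, within 50 kb, lay 1092 regions that were not E1-gained, which the rule used only to set that class aside. They were called at 39.7% ± 1.91 (SD, n = 3) in shRNA-Ctrl E1, 39.7% ± 0.389 (n = 2) in shRNA-cFos E1 and 40.9% ± 3.06 (n = 3) in shRNA-Ctrl E0. The difference was 0 points between shRNA groups at E1 (two-sided exact permutation p = 1) and -1.19 points for shRNA-Ctrl E1 minus E0 (exact permutation p = 0.7). Adjusted over 4 tests, which include those around retained regions, these were 1 and 0.933. Such tests cannot go below 0.1, and lists of equal length hold each library's share near that of the others, so these values do not show that the surroundings were alike. With full lists the shRNA-cFos E1 minus shRNA-Ctrl E1 difference was -12.9 points, and with a score of at least 100 it was -14.7 points. This comparison was added after the data were seen.

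The number of missing regions depends on the lists entered. With full lists 1433 regions met the same rule, and 68 of the 359 (18.9%) overlapped one of these (4.75% of the 1433). At equal length the rule found 1175 regions when shRNA-Ctrl E1 replicate 2 was left out, which had fewer peaks than the other control E1 lists. Leaving out replicate 1 or 3 of that group gave 561 or 742, and leaving out replicate 1 or 2 of shRNA-cFos E1 gave 721 or 542. Without shRNA-Ctrl E1 replicate 2, what is left of control E1 is the pair of lists with the shorter kind of name, and the effect of this list cannot be told apart from that of the naming.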

How the data were processed

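ATAC-seq peak lists of 11 libraries were used. Each stems from 1 mouse, per the labels' protocols. Per the submitters' processing notes reads were aligned with Bowtie2 and the build is mm9. Caller settings and read filters are not given in the sources used here. Each deposited list gives positions, a peak name that carries MACS and a score from 50 to 3100 whose scale is not stated. The score set only the order of peaks inside each list and 1 minimum. Lists were cut to 25145 peaks (ties in file order), which left depth unknown but list length equal, and 554 peaks on other chromosomes were left out. Starts are 1-based.

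Differences between shares were tested by exact permutation over libraries. Regions named by position are taken from the 25 with the highest mean percentile, plus windows of 1 Mb, regions at the cut and regions without any other peak. Some regions called in all 3 shRNA-cFos E0 libraries were also named, after their values were seen. Planned motif, gene and promoter comparisons were not run, since no mm9 sequence or annotation was at hand. The members and lists were chosen with earlier results of these data known. The merging and the rule were tested on simulated lists. Python 3.11.15, pandas 2.3.3, scipy 1.17.1, numpy 2.4.6 and, for plots, matplotlib 3.10.9 were used.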

Additional observations from a re-analysis of the deposited data

How the results depend on the processing

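Against 359 missing regions at the 25145-peak cut, full lists gave 1433, a cut at 15000 peaks 192, a score of at least 100 gave 630, and allowing 1 absent shRNA-Ctrl E1 call 1756. Leaving out 1 library gave 359 to 1175. The share called at shRNA-cFos E0 (6.04%) became 15.6%, 4.34% and 14.5% with full lists, 15000 peaks and a score of at least 100, and 5.15% to 9.94% without 1 library. The share with a shRNA-cFos E1 peak at any rank (80.8%) became 92.2%, 97.9%, 87.5% and 67.4% with 20000 peaks, 15000 peaks, a score of at least 100 and 1 absent call. It was 56.0% to 81.4% without 1 library, and 0% with full lists, where the rule allows no such peak. The share called by a left-out shRNA-cFos E1 library (42.0% ± 11.6, SD, n = 2) became 26.8% with 1 absent call allowed and lay at 40.0% to 44.5% under 7 other settings. The cause of these shifts was not tested.

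Missing regions lay below retained regions at shRNA-cFos E0 by 16.7 to 28.1 points in all 24 settings run, 5 of them the score bands. Around missing regions the difference between shRNA groups ran from -14.7 points (score of at least 100) to 3.32 points (50% of the region covered), and its p could not have passed under any setting. No paired analysis was possible because the rule fixes the calls in all groups but shRNA-cFos E0, and the neighbouring regions were compared only between groups of 3 and 2 unrelated mice.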
